A study of Macaca mulatta with 51 samples.

Results

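The slow fiber contractile genes encode the parts of the contractile apparatus and of its calcium store that slow-twitch (type I) muscle fibers use. Their rows were taken by gene symbol from a list of 10 genes, without use of any measured value in that step. The list itself was chosen with earlier results of these data known. Of the 10 genes, 7 had a row in the gene count table, which holds 16033 genes. These were MYH7, MYL2, MYL3, TPM3, TNNC1, TNNI1 and CASQ2, while MYH7B, TNNT1 and ATP2A2 were not analysed here. All 7 passed the filter on low counts, at least 0.5 CPM (counts scaled to the size of the library) in 10% of the muscle libraries, which left 12617 genes to test.

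The biopsies came from diet-induced obese (DIO) rhesus macaques, non-diabetic males and ovariectomized females that ate a high-fat diet throughout. Gastrocnemius skeletal muscle (SM) and subcutaneous adipose tissue (AT) were sampled by punch before treatment (pre-treatment), after 12 weeks of daily subcutaneous injections of native human FGF21 in rising doses (post-treatment), and after 16 weeks without the drug (washout). All animals received FGF21, so treatment cannot be told apart from time in the study, and 1 animal that the labels do not name was held at a lower final dose. In SM, polyA RNA sequencing counts were available for 6 pre-treatment, 8 post-treatment and 7 washout biopsies of 8 animals, 6 of which gave a biopsy at every time point; animal 20456 gave 2 biopsies and animal 21866 gave 1.

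Total counts of the 21 SM libraries ranged from 14455195 to 21740711. The summed level of 6 skeletal muscle markers was 46443 to 135605 CPM in SM and 18.7 to 472.0 CPM in AT. The post-treatment libraries of animals 21189 and 21866 stood apart, with a median Spearman correlation of 0.871 and 0.912 to the other SM libraries, compared to 0.939 or higher for the other 19. The summed level of 7 fibroblast markers was 38768 CPM and 25071 CPM in these 2 libraries and at most 12099 CPM in the others. Library identifiers fall into 3 number series, and 6 of the 7 washout libraries, but only 2 of the 6 pre-treatment libraries, belong to the last one. What these series stand for is not given in the sources used here.

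In a muscle fiber, myosin heavy chains pull on actin filaments, light chains bound to the myosin neck tune the motor, and the troponin and tropomyosin complex on the thin filament opens the binding sites when calcium is released from the sarcoplasmic reticulum. Slow and fast fibers carry different paralogs of nearly all these proteins. The gastrocnemius is a mixed muscle whose fiber types are unevenly distributed between its regions, so a punch may hold more or fewer slow fibers. In whole biopsies, fewer slow fibers and less slow-fiber RNA per fiber cannot be told apart.

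The slow fiber genes varied widely between biopsies of the same time point. The standard deviation (SD) of log2 CPM between biopsies within time points was 1.60 for TPM3 to 2.74 for MYH7, with a median of 1.93, while the 9 fast counterparts had a median of 0.478 and all 12617 genes tested a median of 0.462. Each of the 7 genes ranked at percentile 98.2 or higher of all genes tested by this SD. The fast counterparts ranged from percentile 30.8 for MYLPF to 82.5 for MYH2. In wider lists, 17 other slow fiber genes had a median SD of 0.848 (0.399 to 2.65). The 15 fast fiber genes tested had a median of 0.529 (0.34 to 1.74). MYH4, a fast myosin gene not among the counterparts, had an SD of 1.75 pre-treatment, 1.26 post-treatment and 2.16 at washout. A single library, the pre-treatment biopsy of animal 22130, carried much of the spread of most of the 7 genes. Without it the SD was 1.67 for MYH7, 1.57 for MYL2 and 1.33 for TNNI1, CASQ2 was the highest at 1.75, the median of the 7 was 1.51 and their percentiles were 94.3 (TPM3) to 98.9 (CASQ2). None of the 7 differed between time points by the test across all genes.

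**Figure D1:**
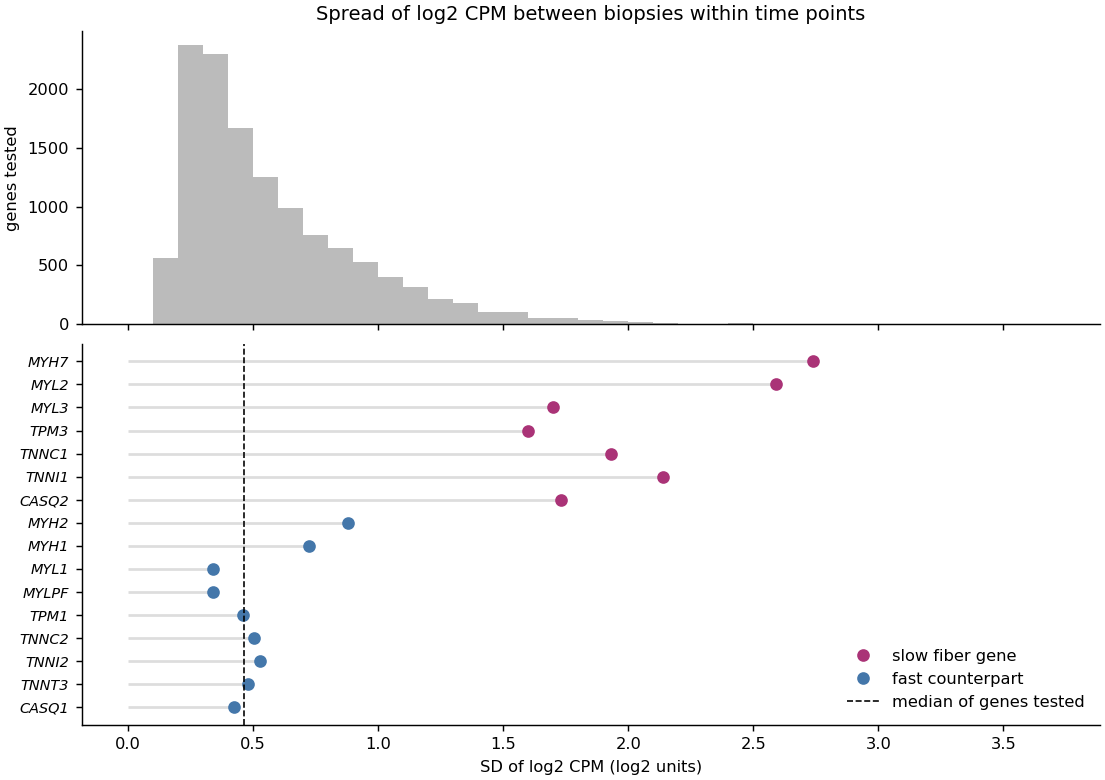
Upper panel: number of genes tested (vertical axis) by the SD of log2 CPM between SM biopsies within time points (horizontal axis, log2 units). Lower panel: the same SD for the 7 slow fiber genes and 9 fast counterparts; the slow fiber genes lie between 1.60 and 2.74, and every fast counterpart lies at 0.88 or lower.

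MYH7 encodes the slow (beta) myosin heavy chain, the defining motor of type I fibers. It ranged from 2.39 to 4176 CPM with a median of 3075 CPM in the 6 pre-treatment biopsies, from 94.6 to 18735 CPM with a median of 1638 CPM in the 8 post-treatment biopsies, and from 1662 to 17657 CPM with a median of 7337 CPM in the 7 washout biopsies. Mean levels were 2681 CPM ± 1600.5 (SD, n = 6), 4317 CPM ± 6259 (SD, n = 8) and 8163 CPM ± 6066 (SD, n = 7). The ranges overlapped at all 3 time points, although washout had the highest median and no biopsy below 1662 CPM. The highest level was 7827-fold the lowest over the 21 biopsies, and 198-fold when the pre-treatment biopsy of animal 22130 was left out.

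In that biopsy most of the slow fiber genes stood far below their level in the other biopsies. Its library had 36 counts on MYH7 out of 1408806 counts on the 4 adult myosin heavy chain genes MYH7, MYH2, MYH1 and MYH4, a share of 0.00256% (95% Wilson interval 0.00185% to 0.00354%, counting error only). It was the lowest pre-treatment library for all 7 genes, with MYL2 at 0.997 CPM, TNNI1 at 3.26 CPM, TNNC1 at 10.2 CPM, TPM3 at 15.5 CPM, MYL3 at 30.3 CPM and CASQ2 at 10.6 CPM. MYL3 and CASQ2 were lower still in some post-treatment biopsies. Slow fiber genes outside the 7 were mixed in this library, and those given here are examples. MYBPC1, the gene of slow myosin-binding protein C, stood at 10360 CPM, within the range of the other pre-treatment biopsies. The cardiac myosin gene MYH6 was lowest here of the pre-treatment biopsies, at 0.00 CPM. Without this library the fold between the highest and lowest SM biopsy fell from 67.8 to 18.5 for MYOZ2 and from 494.3 to 263.2 for MYLK3. The fast myosins of this library were within the range of the other biopsies, as MYH2 at 16806 CPM was the highest pre-treatment value and MYH1 took 81.5% of its myosin counts. Its summed skeletal muscle markers, at 110741 CPM, lay within the range of the other pre-treatment libraries, and its median correlation to the other SM libraries was 0.964. In later biopsies of the same animal, MYH7 stood at 1196 CPM and 1662 CPM.

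In the other 5 pre-treatment biopsies MYH7 ranged over 2.51-fold, from 1663 to 4176 CPM, and MYL2 over 1.70-fold. With that biopsy, the pre-treatment SD of log2 CPM was 4.21 for MYH7, and without it 0.539. The post-treatment group, in contrast, was wide at both ends: animal 20456 had the highest and animal 21866 the lowest MYH7, and the SD of log2 CPM was 2.25. At washout the SD was 1.35, with animals 20275 (17657 CPM) and 20456 (14414 CPM) high and animals 22130 (1662 CPM) and 19832 (1756 CPM) low.

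**Figure D2:**
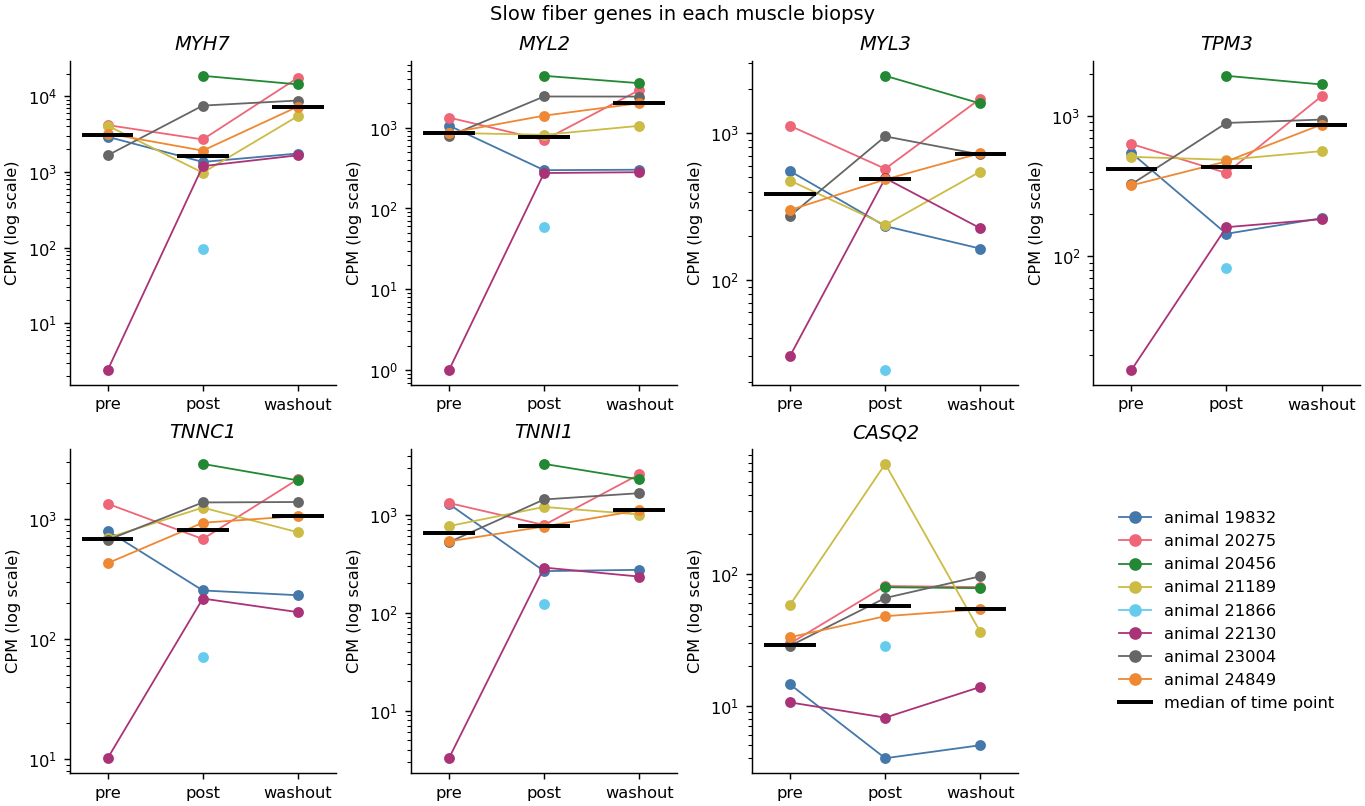
Level of each slow fiber gene in CPM (vertical axis, log scale) by time point; points are biopsies, lines join biopsies of 1 animal and black bars are medians. The pre-treatment biopsy of animal 22130 is the lowest pre-treatment point in every panel (MYH7 2.39 CPM), and animal 20456 is the highest post-treatment point in every panel except CASQ2.

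Levels of MYH7 can also be read within a library, where scaling between libraries has no part. The share of MYH7 in the counts on the 4 adult myosin genes had a median of 3.23% pre-treatment (0.00256% to 8.0%), 4.83% post-treatment (0.255% to 17.1%) and 6.42% at washout (1.53% to 15.7%). MYH1, a fast type IIx myosin, took 55.5% to 90.9% of these counts, and MYH2, the fast type IIa myosin, took 4.29% to 30.9%. These shares compare counts, not levels per length, and reads shared by near-identical myosin genes may be split between them, as the handling of such reads is not given in the sources used here. All 7 slow fiber genes together took 0.00699% to 2.97% of all counts of a library.

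**Figure D3:**
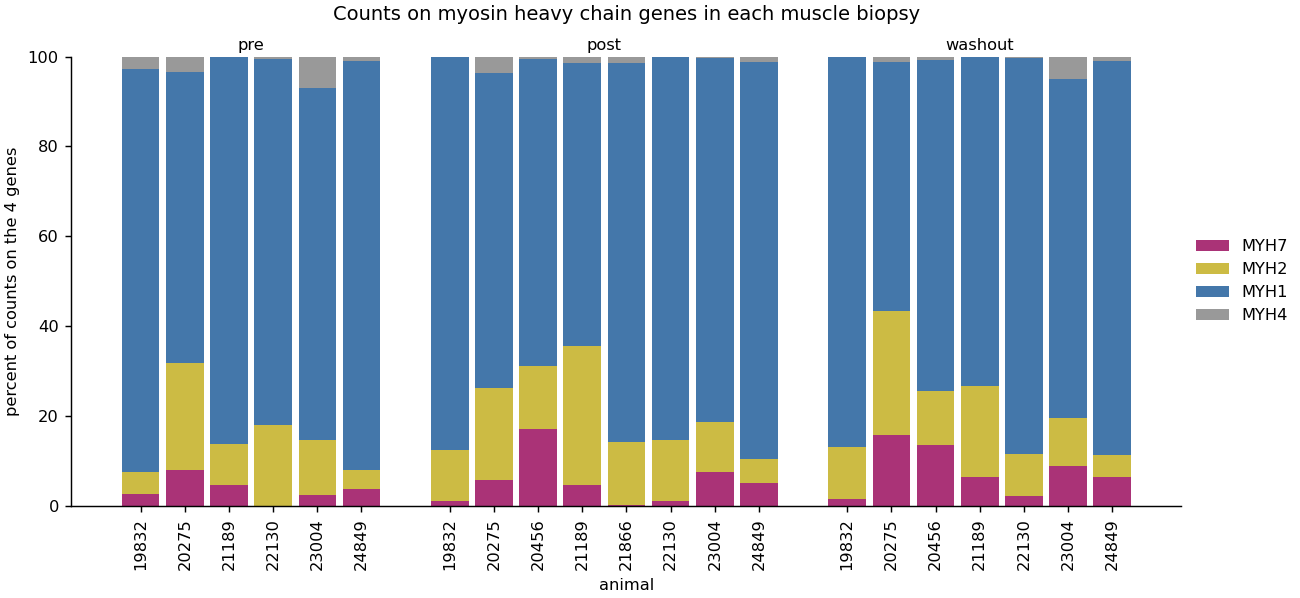
Percent of the counts on MYH7, MYH2, MYH1 and MYH4 (vertical axis) taken by each gene in each of the 21 SM biopsies, by animal within time point. The MYH7 part runs from 0.00256% (pre-treatment, animal 22130) to 17.1% (post-treatment, animal 20456), and MYH1 takes at least 55.5% in every biopsy.

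MYL2 and MYL3 encode the regulatory and the essential light chain of slow myosin. MYL2 ranged from 0.997 to 1335 CPM (median 860.8) pre-treatment, from 59.4 to 4387 CPM (median 758.3) post-treatment and from 281.1 to 3555 CPM (median 2010.0) at washout. MYL3 ranged from 30.3 to 1122 CPM (median 387.1), from 24.2 to 2463 CPM (median 488.3) and from 163.2 to 1721 CPM (median 715.8). The lowest and the highest light chain levels fell in the same biopsies as those of MYH7 before and after treatment. At washout animal 19832 was lowest for MYL3, and animal 20456 was highest for MYL2.

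On the thin filament, TNNC1 encodes the calcium-binding troponin of slow and cardiac muscle, TNNI1 the slow inhibitory troponin, and TPM3 the slow tropomyosin. TNNC1 ranged from 10.2 to 1343 CPM (median 684.3) pre-treatment, from 71.4 to 2886 CPM (median 808.2) post-treatment and from 168.0 to 2150.2 CPM (median 1059) at washout. TNNI1 ranged from 3.26 to 1318 CPM (median 649.6), from 121.7 to 3305 CPM (median 771.3) and from 233.5 to 2581 CPM (median 1109). TPM3 ranged from 15.5 to 631.6 CPM (median 418.8), from 82.6 to 1932 CPM (median 433.7) and from 184.0 to 1676 CPM (median 868.6). For all 3 genes the medians stood highest at washout, and the groups overlapped.

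CASQ2 encodes the calcium-binding calsequestrin that stores calcium in the sarcoplasmic reticulum of slow and cardiac muscle. It ranged from 10.6 to 58.4 CPM (median 29.1) pre-treatment, from 4.0 to 683.6 CPM (median 56.8) post-treatment and from 5.02 to 96.0 CPM (median 54.0) at washout. The value of 683.6 CPM came from the post-treatment biopsy of animal 21189, and no other biopsy exceeded 96.0 CPM. In that library the developmental myosin genes MYH3 and MYH8 stood at 2326 CPM and 563.4 CPM, above the 521.6 CPM and 238.5 CPM of the next highest libraries, and COL1A1 at 5950 CPM, above 2933 CPM. These genes were chosen after their values were seen, and their part in the level of CASQ2 was not tested.

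The comparison of post-treatment with pre-treatment asks whether 12 weeks of FGF21 altered the slow fiber program. By edgeR's quasi-likelihood test with time point and animal in the model and Benjamini-Hochberg adjustment over all genes, 0 of the 7 genes were DE (adjusted p under 0.05 and log2 fold change beyond 0.26 in either direction), and 0 had an unadjusted p under 0.05. Of all 12617 genes, 0% were DE in this comparison and 410 had an unadjusted p under 0.05. The fitted log2 fold change of MYH7 was 0.22 (SE 0.928, 95% interval -1.77 to 2.21, adjusted p = 0.9996). The fitted changes of the other 6 lay between 0.30 for TPM3 and 0.84 for CASQ2, and their intervals all included 0. CASQ2 was 0.24 without animal 21189 and 0.096 without the post-treatment libraries of animals 21189 and 21866. The median of the 7 was 0.45, compared to -0.02 for all genes tested, and -0.03 without the pre-treatment library of animal 22130.

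Within the 6 animals with both biopsies, MYH7 was higher post-treatment in 2 and lower in 4. The log2 change was 8.90 in animal 22130, whose pre-treatment biopsy had the 36 counts on MYH7, and -2.07 in animal 21189. Without that pre-treatment library the fitted changes of 4 genes turned negative, to -0.30 for MYH7, -0.10 for TPM3, -0.06 for MYL2 and -0.03 for TNNI1. Within the first identifier series (5 post-treatment and 3 pre-treatment libraries) mean log2 CPM of MYH7 was 3.49 higher post-treatment, and within the last (3 and 2 libraries) it was 2.64 lower. The other 5 sarcomere genes showed the same change of sign between these series, with differences of 1.67 to 3.27 in the first and -2.48 to -1.13 in the last. The contrast in the first series rested largely on 1 library, and that in the last series did so in part. The first series gave -0.01 for MYH7 and 0.07 (MYL2) to 0.87 (MYL3) for the other 5 without the pre-treatment library of animal 22130. Without the post-treatment library of animal 21866 the last series gave -1.35 for MYH7 and -1.22 (MYL3) to 0.06 (TNNC1) for the other 5.

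The comparison of washout with post-treatment follows withdrawal of the drug. Again 0 of the 7 genes were DE by edgeR and 0 had an unadjusted p under 0.05. Over all 12617 genes, 0.19% were DE and 2181 had such a p. MYH7 had a fitted log2 fold change of 0.99 (SE 0.803, 95% interval -0.73 to 2.71, adjusted p = 0.550) and was higher at washout in 6 of 7 animals. TPM3 (0.45) and MYL2 (0.34) had smaller fitted changes, MYL3 (0.00) and TNNC1 (-0.03) had values close to 0, and CASQ2 had -0.34. Within the last identifier series (6 washout and 3 post-treatment libraries) MYH7 was 3.19 higher at washout on the log2 scale and TNNC1 0.63 higher, whereas CASQ2 differed by -1.61. Without the post-treatment library of animal 21866 these differences were 1.91, -0.67 and -2.50, and without that of animal 21189 as well, which left 1 post-treatment library, they were 1.42, -0.46 and -0.58.

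The comparison of washout with pre-treatment spans the whole study. None of the 7 genes were DE by edgeR (0 with an unadjusted p under 0.05), while 0.0634% of all genes were. An unadjusted p under 0.05 was found for 1691 of all 12617 genes. Fitted log2 fold changes were 1.21 for MYH7 (SE 0.866, 95% interval -0.65 to 3.06, adjusted p = 0.573), 0.78 for MYL2 and 0.75 for TPM3, and between 0.45 and 0.64 for the other 4. Without the pre-treatment library of animal 22130 they were 0.78 for MYH7, 0.33 for MYL2, 0.37 for TPM3, 0.18 for TNNI1, 0.15 for TNNC1, 0.10 for MYL3 and 0.65 for CASQ2. In the 6 animals with both biopsies each of the 6 sarcomere genes was higher at washout in 5 and lower in 1, animal 19832. CASQ2 was higher in 4 of the 6. Within the last identifier series (6 washout and 2 pre-treatment libraries) mean log2 CPM was 0.56 higher for MYH7 and 0.62 higher for CASQ2, but lower for the other 5, by 0.15 for TPM3 to 0.67 for TNNI1. Summed erythroid markers had a median of 38.8 CPM pre-treatment and 764.4 CPM at washout, and summed skeletal muscle markers 102903 CPM and 132837 CPM. The erythroid markers did not move together. Their fitted log2 fold changes were 3.6 for HBB, 4.4 for ALAS2 and -2.4 for AHSP, none of them DE. The part of either marker sum in the levels of the slow fiber genes was not tested.

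A refit with the study's method, voomWithQualityWeights of limma, also called 0 of the 7 genes in any comparison, but gave other sizes. Over all 12617 genes it called 0 post-treatment compared to pre-treatment, 9 at washout compared to post-treatment and 11 compared to pre-treatment. The paper reports more DE genes in SM at washout in both comparisons, so the refit did not reproduce its counts. Why they differ was not tested. The log2 change of MYH7 in this refit was 3.50 post-treatment compared to pre-treatment (adjusted p = 0.984). Here 6 of the 7 genes had an unadjusted p under 0.05, beside 479 of all 12617 genes. These 6 were the sarcomere genes, which varied together across biopsies and are not independent of each other. At washout compared to post-treatment the refit gave -0.87 for MYH7 (adjusted p = 0.802). At washout compared to pre-treatment it gave 2.63 (adjusted p = 0.280). In that comparison 2 of the 7 genes had an unadjusted p under 0.05, beside 2050 of all genes. DESeq2 called 0 of the 7 in each comparison, with 0 unadjusted p under 0.05. Over all 12617 genes these numbered 388, 2222 and 1678 in the 3 comparisons.

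**Figure D4:**
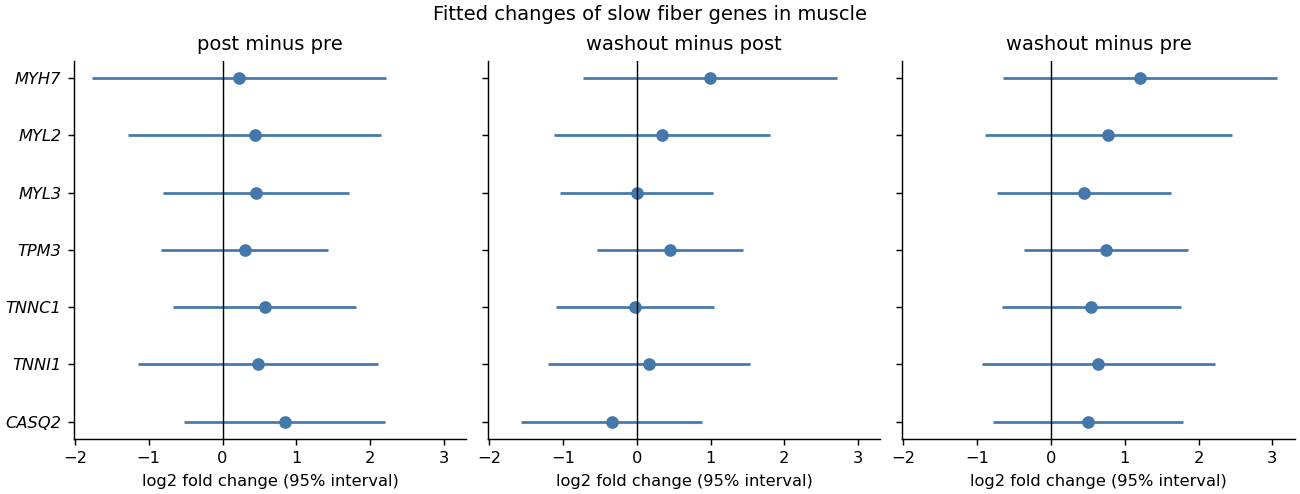
Fitted log2 fold change (horizontal axis, points) with its 95% interval (lines) for each slow fiber gene in the 3 comparisons of time points in SM, from edgeR. Every interval includes 0; the widest is that of MYH7 post minus pre, from -1.77 to 2.21.

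Each slow gene was also set against its fast counterpart in the same library, as the log2 ratio of counts with 0.5 added to each. Ratios were compared between time points within animals by two-sided exact sign-flip permutation tests, in 8 pairs of genes and 3 comparisons (24 tests). Post-treatment compared to pre-treatment, all 8 mean ratios were higher, by 0.56 (TPM3 to TPM1) to 1.55 (MYH7 to MYH1), with exact p from 0.312 to 0.812 over 6 animals. Washout compared to post-treatment, 7 of the 8 mean ratios were higher, and changes ran from -0.54 (CASQ2 to CASQ1) to 0.67 (MYH7 to MYH2). Exact p ranged from 0.0312 to 0.875 over 7 animals. The 2 pairs with the smallest p were MYH7 to MYH2 and MYL2 to MYLPF. The first ratio rose in 6 of 7 animals by a mean of 0.67 (SD 0.565, exact permutation p = 0.0312, adjusted p = 0.374). The second rose by 0.66 (SD 0.730, exact p = 0.0312, adjusted p = 0.374), also in 6 of 7. The smallest p this design allows is 0.0156 with 7 animals and 0.0312 with 6.

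Washout compared to pre-treatment, all 8 mean ratios were again higher, by 0.48 (CASQ2 to CASQ1) to 2.23 (MYH7 to MYH1), and no exact p fell below 0.0938 (lowest adjusted p = 0.375). Without the pre-treatment library of animal 22130 the mean change of the MYH7 to MYH1 ratio in this comparison was 0.76, and post-treatment compared to pre-treatment the MYH7 to MYH2 ratio changed sign, from 1.08 to -0.53. None of the 24 changes passed the adjusted threshold. The fast counterparts themselves were not DE: MYH2 had a fitted log2 fold change of 0.59 at washout compared to pre-treatment, MYL1 -0.40 and MYLPF -0.40 (adjusted p = 0.494, 0.429 and 0.434).

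Levels of the slow fiber genes were also compared between animals. Animal 20456 had 18735 CPM of MYH7 post-treatment and 14414 CPM at washout, whereas animal 19832 stayed between 1358 and 2922 CPM of MYH7 at all 3 time points. In animal 19832 MYL2 moved over 3.56-fold and TNNC1 over 3.44-fold, compared to 2.15-fold for MYH7. MYH7 of animal 20275 moved over 6.55-fold, from 2695 CPM post-treatment to 17657 CPM at washout. An F test of the 7 animal terms in the edgeR model gave 0 of the 7 genes at an adjusted p under 0.05, while 5.7% of all genes tested passed. Adjusted p was 0.0632 for CASQ2, 0.0654 for TNNC1, 0.0756 for TPM3, 0.0832 for MYL3, 0.185 for MYL2, 0.232 for TNNI1 and 0.239 for MYH7. The unadjusted p was under 0.05 for 5 of the 7. The share of all genes at that threshold was not obtained, so no conclusion is drawn from this count. The sarcomere genes also varied together across biopsies and are not independent of each other.

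Without the pre-treatment library of animal 22130, a choice made after its values were seen, 5 of the 7 genes passed this test, when 4.07% of all genes did. Adjusted p was then 0.0278 for MYL2, 0.0304 for TNNC1, 0.0423 for MYL3, 0.0448 for MYH7 and 0.0478 for TPM3. When every biopsy of animal 22130 was left out, MYL3 was the only one of the 7 to pass (adjusted p = 0.0349), when 4.52% of all genes did. When the pre-treatment library of that animal was left out together with the post-treatment libraries of animals 21189 and 21866, only CASQ2 passed (adjusted p = 0.0357), when 5.29% of all genes did. With every SM library kept, the SD of log2 CPM that remained after time point and animal were fitted was 1.01 (TPM3) to 2.19 (MYH7). Its median was 1.15, compared to 0.40 for all genes. In the same libraries the edgeR biological coefficient of variation was 0.574 for TPM3 to 0.899 for MYH7, compared to a median of 0.288 over all genes. Without the pre-treatment library of animal 22130, the SE of the fitted MYH7 change post-treatment compared to pre-treatment was 0.556, compared to 0.928 with it.

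The 6 sarcomere genes varied together across biopsies. Over the 21 SM libraries, after the mean of each time point was taken off log2 CPM, Pearson's r with MYH7 was 0.98 for MYL2, 0.96 for TNNI1, 0.93 for TNNC1 and TPM3 and 0.90 for MYL3. These libraries share animals, and all r are descriptions. Without the pre-treatment library of animal 22130 the values were 0.88 to 0.96, so the relation did not rest on that biopsy. CASQ2 was less alike, with r = 0.37 to MYH7, or 0.51 without the post-treatment library of animal 21189. Among all genes tested the median r with MYH7 was 0.01, and 234 of 12616 exceeded 0.5.

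**Figure D5:**
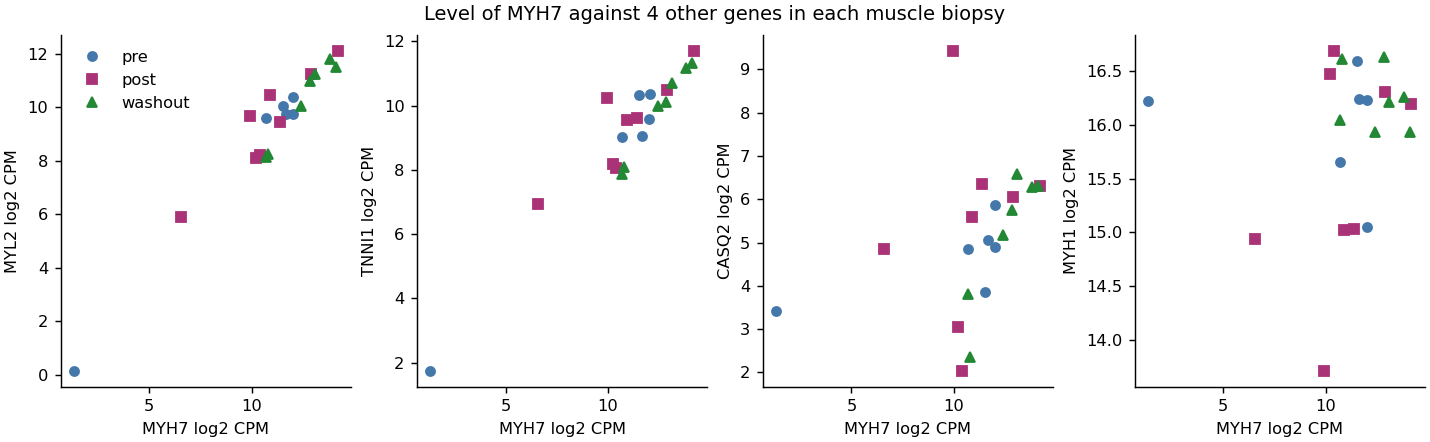
Level of MYL2, TNNI1, CASQ2 and MYH1 (vertical axes, log2 CPM) against that of MYH7 (horizontal axes, log2 CPM) in each of the 21 SM biopsies, by time point. MYL2 and TNNI1 follow MYH7 over its whole range (r = 0.98 and 0.96), CASQ2 does so less (r = 0.37), and MYH1 does not (r = 0.10).

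Outside the list, the 5 genes with at least 1 CPM on average that were most like MYH7 were MYLK3 (r = 0.89), RSPO3 (0.87), MYOZ2 (0.81), MALT1 (0.78) and LMCD1 (0.77). MYLK3 encodes a myosin light chain kinase best known from the heart, MYOZ2 the Z-disc protein calsarcin-1 of slow and cardiac muscle, RSPO3 a secreted enhancer of Wnt signaling, MALT1 a paracaspase of NF-kB signaling and LMCD1 a LIM domain protein. MYLK3 ranged from 0.0665 to 32.9 CPM in SM. Among the genes least like MYH7 were TMEM59 (r = -0.74), RPL31, IGF1R and LCA5L (each -0.72). The order of the next genes differs little, and no common role is implied.

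Of 17 other slow fiber genes, 6 had r above 0.5 with MYH7: MYLK3, MYOZ2, PLN (0.75), MYH6 (0.69), ANKRD2 (0.61) and MYL6B (0.54). MYBPC1 (0.31), the slow myosin-binding protein C gene, and the small heat shock protein gene CRYAB (-0.17) did not. Of 15 fast fiber genes 0 exceeded 0.5 (range -0.05 to 0.28), and of 16 sarcomere genes of both fiber types 0 did (-0.03 to 0.43). Among 34 regulators of fiber type, PROX1 (0.68) and ESRRG (0.56) exceeded 0.5, whereas PPARGC1A, a coactivator of mitochondrial genes, had 0.21. PROX1 is a homeobox factor of slow fibers and ESRRG an orphan nuclear receptor of oxidative muscle.

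None of these lists, nor those of markers of 9 cell types, held a DE gene in any comparison of time points. Of the 17 other slow fiber genes, PLN, the inhibitor of the slow fiber calcium pump, came closest, with a fitted log2 fold change of 1.05 at washout compared to pre-treatment (SE 0.236, adjusted p = 0.121, unadjusted p = 0.000472). The median fitted change of the 17 was 0.07 in that comparison and that of the 15 fast fiber genes -0.10, compared to 0.64 for the 7 slow fiber genes (0.33 without the pre-treatment library of animal 22130) and -0.05 for all genes tested. Between animals, PLN (adjusted p = 0.00346) and MYH6 (0.0078) of the other slow fiber genes differed, as did PPARGC1A (0.00484) and VGLL2 (0.0211) of the regulators and PVALB (0.0138) of the fast fiber genes. These are 11.8% of the 17 other slow fiber genes, 5.88% of the 34 regulators and 6.67% of the 15 fast fiber genes, beside 5.7% of all genes tested. MYH6, the cardiac alpha myosin gene that is close in sequence to MYH7, ranged from 0.00 to 66.6 CPM.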

How the data were processed

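SM and AT punch biopsies of DIO macaques were sequenced by the study (stranded polyA libraries, paired-end reads). STAR was the authors' aligner and MacaM their genome, and the values deposited are raw counts per gene in 48 libraries; the tool and strand setting of the counting are not given in the sources used here, and the submitters' processing notes also name FastQC, SAMtools, edgeR and limma. Of 51 labelled samples, 3 in SM had no column and were not analysed here. Of 16103 entries, 70 repeats were dropped. No column of the table was left unmapped.

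SM libraries (14455195 to 21740711 counts) were scaled by TMM in edgeR 4.0.16 (R 4.3.3). Genes with at least 0.5 CPM in 10% of libraries were tested with the robust quasi-likelihood test, with time point and animal as terms, over the 21 libraries. log2 CPM used a prior count of 2. Count ratios used exact sign-flip permutation tests (SciPy 1.17.1, NumPy 2.4.6). DESeq2 1.42.0 and limma 3.58.1 were alternatives, with other filters, scaling, libraries and covariates. Wilson intervals are at 95% and cover counting error only.

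Biopsies pair by animal, as the labels name it; after time point means were removed, libraries of 1 animal correlated over all genes with a median r of 0.286 (pre-treatment and post-treatment), 0.178 (post-treatment and washout) and 0.354 (pre-treatment and washout). P-values measure the spread between biopsies, each a single punch.

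The genes and lists were chosen with earlier results of these data known. Named genes were all members, their fast counterparts, any DE gene of the other lists, and the 5 genes most and least like MYH7 with at least 1 CPM on average, of which 1 is not reported here; a few more, named as examples, were chosen after their values were seen. The lists came from general knowledge of muscle and cell type markers. The fit was tested on simulated data without differences between animals or an outlying library. That test has no bearing on the spread of the slow fiber genes.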

Additional observations from a re-analysis of the deposited data

Results flagged for a closer look

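The highest and lowest biopsy of each time point was compared with the rest of its group by Dixon's gap criterion on log2 CPM, for the 7 slow fiber genes at 3 time points (21 groups). Chance flags about 5% of groups, and 5 of the 21 were flagged, all from the pre-treatment library of animal 22130, so they are not independent of each other. In that library MYH7 stood at 1.33 log2 CPM with the next lowest pre-treatment biopsy at 10.7, and MYL2 at 0.15 with the next at 9.62. TNNI1 stood at 1.75 with the next at 9.03, TNNC1 at 3.36 with the next at 8.75, and TPM3 at 3.96 with the next at 8.32. MYL3 and CASQ2 were also lowest in this library but were not far enough from the rest. No other library was far enough from its group by this criterion for any of the 7 genes, including the CASQ2 value of 683.6 CPM in the post-treatment library of animal 21189.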

How the results depend on the processing

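None of the 7 slow fiber genes was DE under any alternative in any comparison of time points. The smallest adjusted p over the alternatives ranged from 0.885 to 1 (post-treatment compared to pre-treatment), 0.202 to 0.812 (washout compared to post-treatment) and 0.280 to 0.823 (washout compared to pre-treatment). Of 420 refitted changes 376 kept their direction and 44 reversed; the cause was not tested.

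In all genes, 24 were DE at washout compared to post-treatment and 8 compared to pre-treatment. These counts were 359 and 170 with DESeq2, 4 and 3 with library size alone, and 2650 and 1354 with the library identifier series as a term beside the replicate block. With no replicate block, and so without the pairing by animal, they were 224 and 41, and TNNC1 and MYL3 turned to 0.23 and 0.26 at washout compared to post-treatment. voomWithQualityWeights gave 9 DE genes at washout compared to post-treatment, and the 2 time points alone gave 2. At washout compared to pre-treatment, a minimum of 10 counts in every library gave 17 and edgeR's earlier quasi-likelihood method 3; between animals these gave 381 and 435, against 719. Leaving out 1 animal at a time gave 0 to 38 DE genes at washout compared to post-treatment, 0 to 16 compared to pre-treatment and 319 to 769 between animals, with 0 to 2 of the slow fiber genes among the last.

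Some fitted changes reversed, given here on the log2 scale. Post-treatment compared to pre-treatment, MYH7 was -0.31 with the identifier series. Leaving out 1 animal at a time gave -0.37 to 0.78 for MYH7, -0.094 to 1.08 for MYL2, -0.12 to 0.96 for MYL3, -0.13 to 0.87 for TPM3 and -0.080 to 1.21 for TNNI1, with the lowest value always without animal 22130. At washout compared to post-treatment the same gave -0.24 to 0.090 for TNNC1, -0.23 to 0.31 for MYL3, -0.060 to 0.31 for TNNI1 and -0.54 to 0.28 for CASQ2, the last positive without animal 21189.

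Also at washout compared to post-treatment, voomWithQualityWeights gave -0.87 for MYH7, -0.78 for MYL2, -0.71 for TNNI1 and -0.044 for TPM3. MYL3 was 0.010 with DESeq2, 0.007 with at least 10 counts and 0.10 with the 2 time points alone, where TNNC1 was 0.019. With the identifier series TNNI1 was -0.32, and at washout compared to pre-treatment CASQ2 was -0.41, TNNC1 -0.094 and TNNI1 -0.044.

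The remaining settings were chosen after the data were seen. Without the pre-treatment library of animal 22130, MYH7 was -0.30, TPM3 -0.10, MYL2 -0.061 and TNNI1 -0.032 post-treatment compared to pre-treatment, TNNC1 was 0.014 and MYL3 0.10 at washout compared to post-treatment, 0 genes were DE at washout compared to pre-treatment and 5 slow fiber genes differed between animals. Without the post-treatment libraries of animals 21189 and 21866, 2 genes were DE at washout compared to post-treatment and 28 compared to pre-treatment. Between animals 1 slow fiber gene then differed, beside 779 of 12630 genes tested, and TNNC1 was 0.067 and CASQ2 0.21 at washout compared to post-treatment. Without all 3 of these libraries the counts were 4 and 1 DE genes and 1 slow fiber gene. TNNC1 was then -0.014, TNNI1 -0.15, MYL2 -0.034 and TPM3 -0.12 post-treatment compared to pre-treatment, and TNNC1 was 0.16 and CASQ2 0.21 at washout compared to post-treatment.

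Of 240 recomputed ratio changes 236 kept their direction, and none passed the adjusted threshold. Without the pre-treatment library of animal 22130 the MYH7 to MYH2 ratio changed by -0.53 post-treatment compared to pre-treatment. Leaving out 1 animal at a time gave -0.53 to 1.79 for that ratio and, at washout compared to post-treatment, -0.004 to 0.48 for TNNC1 to TNNC2 and -0.82 to 0.28 for CASQ2 to CASQ1. SDs between biopsies moved by less than 1.5 times with another prior count or scaling; without the pre-treatment library of animal 22130 those of MYH7, MYL2 and TNNI1 fell to 1.67, 1.57 and 1.33. Counts were low for some of these genes in that library (36 for MYH7); 6 to 8 punches per time point, and the spread between them, set the width of the intervals.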

Other observations

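In the 27 AT libraries, with library size alone as the scale in both tissues, MYH7 ranged from 0.0888 to 3.95 CPM, MYL2 from 0.00 to 1.45 CPM, TNNI1 from 0.617 to 4.30 CPM, TNNC1 from 0.697 to 6.58 CPM and MYL3 from 1.66 to 7.71 CPM. The pre-treatment SM biopsy of animal 22130, with MYH7 at 2.29 CPM, MYL2 at 0.953 CPM and TNNI1 at 3.11 CPM on this scale, lay within the AT range for these 3 genes, while the other 20 SM biopsies lay above every AT library. TNNC1 and MYL3 were higher in all 21 SM biopsies than in any AT library.

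TPM3, whose gene also encodes tropomyosins of the cytoskeleton, was abundant in AT at 226 to 668 CPM. Of the 21 SM biopsies 8 lay above and 6 below this whole range, down to 14.8 CPM. CASQ2 reached 85.8 CPM in AT, and only 3 SM biopsies exceeded that level.

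RSPO3, which was among the genes most like MYH7 in SM, ranged from 0.00 to 8.74 CPM there and had a median of 18.1 CPM in AT. Of the 21 SM biopsies 0 exceeded the AT range.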
